A study of Homo sapiens with 10 samples.

Results

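Growth in soft agar was the selection step behind all lines compared here. BEAS-2B is an established, virally immortalised line of human bronchial epithelial cells that needs a surface to grow on, and cells exposed to hexavalent chromium can gain the ability to form colonies without one. The 3 Cr_large lines were each grown from 1 large soft agar colony of BEAS-2B cells exposed to chromate. The 3 control lines each came from 1 colony that had arisen without chromate. Every line is thus 1 clone, and the controls had also been selected for growth in agar. They make 6 of the 10 arrays of the study. The others were 3 Cr_small lines, grown from small colonies of the exposed cells, and 1 array of parental BEAS-2B cells that had not been through agar. By the paper, the Cr_small colonies were the ones picked to match the control colonies in size. Cr_large and control lines therefore differ in colony size as well as in exposure, and these cannot be told apart in this comparison. The labels give an exposure to 0.5 μM potassium chromate for 30 days and 3 weeks in agar in the same words on all arrays, the controls and parental cells included, so the groups were taken from the titles and cell type labels. The paper describes 1 exposure. Replicate error is thus the spread between clones, which is not that between exposures. RNA was hybridised to Affymetrix Human Gene 1.0 ST arrays, and levels are log2 of the deposited intensities, with a median of 5.86 over all values and 10% of them under 4.60.

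Chromate enters cells through anion carriers and is reduced inside them to reactive forms that damage DNA, and hexavalent chromium is a known cause of lung cancer. Growth without anchorage depends on signals that epithelial cells normally take from the extracellular matrix through integrins, and from their neighbours through cadherins and desmosomes. The TGF-beta and BMP pathways govern matrix production and growth arrest in such cells. The genes below are taken in that order, from contacts between cells to matrix, signalling, growth, stress and immune functions, and then by their place in the genome and by line.

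Marker genes were read in all 6 lines. The simple-epithelium keratins KRT8, KRT18 and KRT7 lay between 11.13 and 12.65, while the epithelial adhesion genes CDH1 (4.81 to 5.02) and EPCAM (4.84 to 5.71) lay below the median of all values in every line. VIM, a filament gene of mesenchymal cells, lay between 11.47 and 12.23. Of 9 epithelial markers 4 were higher in Cr_large, and of 10 trophoblast markers 1, as given below with their families. None of 11 fibroblast, 9 endothelial, 9 leukocyte or 8 airway secretory and ciliated markers passed the test, and the lung genes NKX2-1, SFTPC and SCGB1A1 stayed between 5.01 and 5.66. Control line 2 stood apart from the other controls: 56 genes lay over 1 log2 unit above them there, against 0 in control line 1 and 3 in control line 3, and 27 of the 56 were small nuclear or nucleolar RNAs and 5 were histone genes. Its correlation with control lines 1 and 3 was 0.992 and 0.992 across all probe sets, where that between lines 1 and 3 was 0.997. The counts of called clusters and list genes are therefore also given without it.

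At an adjusted p under 0.05 from limma, 2147 of 28869 transcript clusters (7.44%) differed between the Cr_large and the control lines, 960 higher (3.33%) and 1187 lower (4.11%) in Cr_large. Of 18377 genes with a cluster of their own, 1813 (9.87%) were called, 801 higher (4.36%) and 1012 lower (5.51%). At least 2-fold changes were seen for 318 genes (1.73%), 115 higher (0.626%) and 203 lower (1.1%), and at least 5-fold changes for 41 (0.223%), 14 higher (0.0762%) and 27 lower (0.147%). For 30.6% of the genes the 3 Cr_large values lay all above or all below the 3 control values. Calls were more frequent among bright genes: 0.492% of the 3249 genes with a mean under 5 were called, and 17.2% of the 2760 genes with a mean of 9 or more. Among the 7783 genes with a mean over 7 the share was 16.6%. Lists differ in level, so the shares called in them can be read beside both 9.87% and 16.6%. Without control line 2 the number of clusters was 1817, with 694 higher and 1123 lower, of which 351 changed at least 2-fold and 48 at least 5-fold. Of the genes of the lists below, 158 were called with all lines (61 higher and 97 lower) and 135 without control line 2 (41 higher and 94 lower). The number of clusters fell to 1087 without control line 3, to 1218 without control line 1 and to 1332 without Cr_large line 2. In fits that left out each of the 6 lines in turn, 303 of the 801 higher genes (37.8%) and 475 of the 1012 lower genes (46.9%) passed the test every time. Of the genes changed at least 2-fold, 77 of 115 higher and 148 of 203 lower ones did so. Below, a gene is called stable where it passed in all 6 of these fits. In bulk RNA, fewer cells that express a gene and less of its RNA per cell cannot be told apart.

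**Figure D1:**
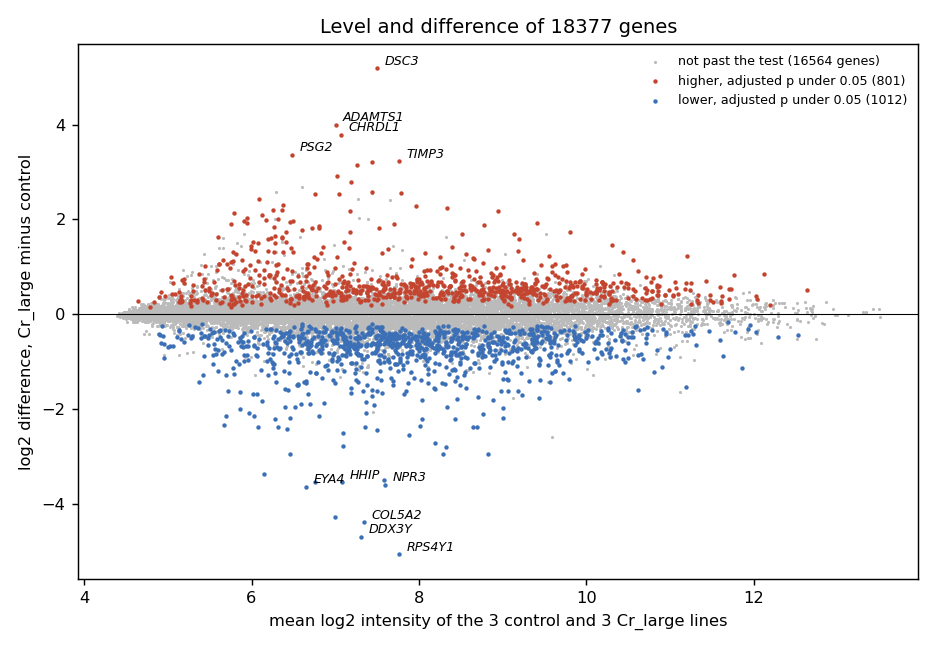
Mean log2 intensity of the 6 lines (horizontal axis) against the log2 difference of Cr_large minus control (vertical axis) for 18377 genes, each point being 1 gene. Red points are the 801 genes that passed the test with higher values and blue points the 1012 with lower values, and few of either colour lie at the dim end on the left.

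The largest rise was that of DSC3, a desmosomal cadherin, from 4.85, 4.90 and 4.96 in the control lines to 9.69, 10.47 and 10.13 in the Cr_large lines. All control values were near the lower end of the scale, against which the fold of 36.6 is set (log2 difference 5.19, standard error 0.17, adjusted p = 9.52e-06, limma). ADAMTS1, a secreted protease that cuts proteoglycans, went from 4.95, 5.19 and 4.87 to 8.53, 9.99 and 8.49 (16.0-fold, adjusted p = 0.00126). CHRDL1, which binds and blocks bone morphogenetic proteins, was at 5.14, 5.46 and 4.94 in the controls and at 8.92, 8.88 and 9.09 in Cr_large (13.8-fold, adjusted p = 9.58e-05). In contrast to ADAMTS1, its 3 Cr_large values lay within 0.3 log2 units. PSG2, a placental glycoprotein, rose 10.3-fold, TIMP3, an inhibitor of matrix proteases, 9.38-fold, and OLR1, a receptor for oxidised lipoprotein, 9.33-fold. OLR1 was at 9.50 and 9.54 in Cr_large lines 1 and 3 but at 8.10 in line 2, with controls at 6.05, 5.73 and 5.70. The kinase gene STK26 rose 8.86-fold, NPPB, which encodes a natriuretic peptide, 6.92-fold, ELOVL7, an enzyme that lengthens fatty acids, 5.86-fold, and EPHA4, an ephrin receptor, 5.79-fold. LYPD6B rose 5.79-fold, the zinc finger gene ZNF711 5.37-fold and SAMD12 4.96-fold. DSC2 and PERP complete the 15 largest rises and are described with the desmosome. All 15 were stable.

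**Figure D2:**
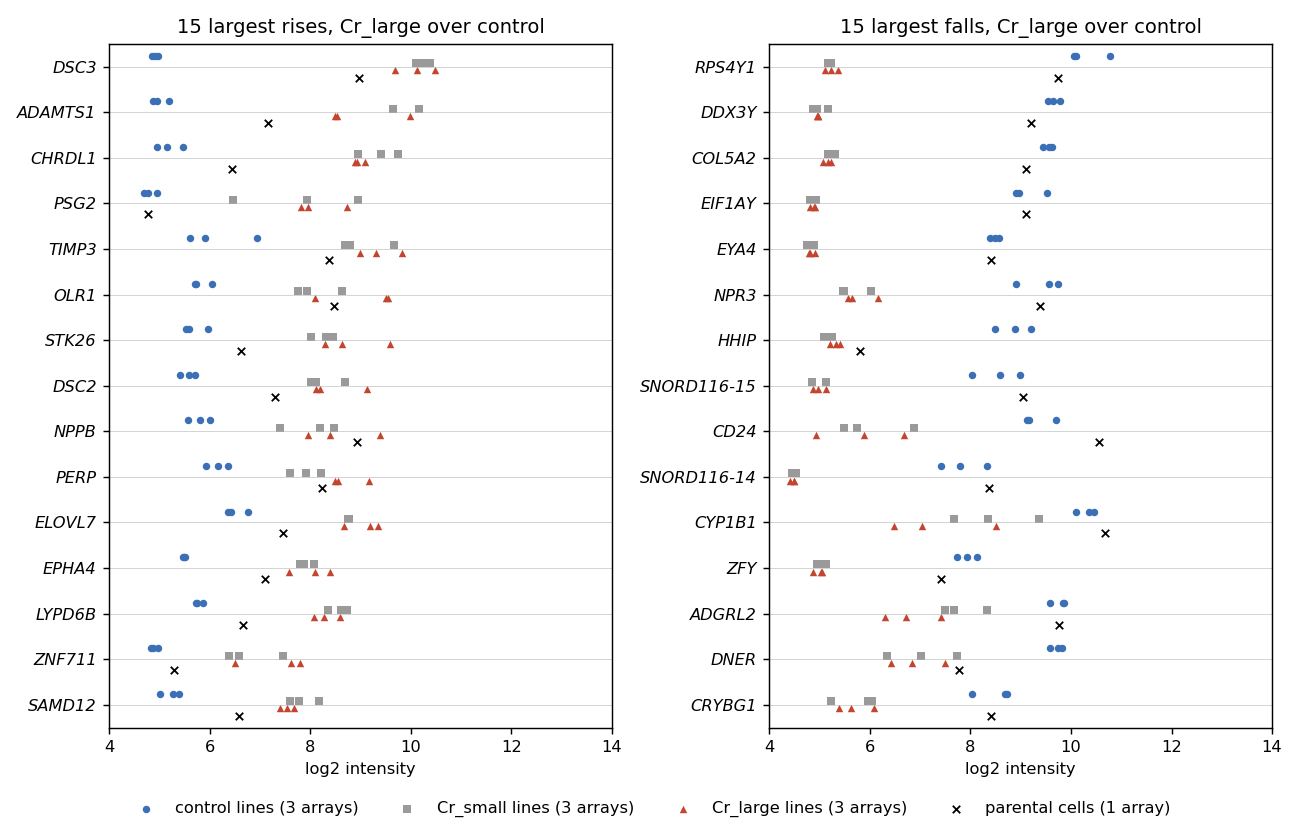
Log2 intensity (horizontal axis) of the 15 genes with the largest rise (left) and the 15 with the largest fall (right) in Cr_large against control, 1 point per array for the control, Cr_small and Cr_large lines and the parental cells. In each row the red and blue points do not overlap, and COL5A2 and EYA4 lie near 5 in all 3 Cr_large lines.

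Among the falls, COL5A2, a chain of the fibrillar type V collagen, was at 9.63, 9.56 and 9.45 in the control lines and at 5.07, 5.22 and 5.16 in the Cr_large lines. Its log2 difference of -4.39 had a standard error of 0.07 (adjusted p = 9.55e-08, limma), and the Cr_large values lay below the median of all values on the array. EYA4, a transcriptional coactivator and phosphatase, was at 8.48, 8.38 and 8.56 against 4.81, 4.90 and 4.78 (12.5-fold, adjusted p = 1.43e-07). NPR3, which clears natriuretic peptides, fell from 9.56, 9.74 and 8.90 to 6.17, 5.64 and 5.57, a 12.2-fold difference. HHIP, which binds and blocks hedgehog ligands, fell from 9.20, 8.89 and 8.49 to 5.32, 5.40 and 5.20, an 11.7-fold difference. NPPB thus rose while the clearance receptor of its family fell. CD24, a small surface glycoprotein, was 11.3-fold lower, and its Cr_large lines were spread from 4.93 in line 2 to 6.68 in line 1. ADGRL2, an adhesion receptor, was 7.76-fold lower, DNER, a Notch ligand of nerve cells, 6.99-fold, and CRYBG1 6.89-fold. CYP1B1, an oxidase of xenobiotics, was 7.78-fold lower, at 6.48, 7.03 and 8.51 against 10.35, 10.09 and 10.45. It did not pass without control line 1, control line 3 or Cr_large line 2, and it was the only one of the 15 falls that was not stable. The other 6 were 4 genes of the Y chromosome, RPS4Y1, DDX3Y, EIF1AY and ZFY, and SNORD116-15 and SNORD116-14, small nucleolar RNAs whose near-identical copies the probes may not separate.

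The desmosome is the spot junction that ties keratin filaments of neighbouring cells together. Of 14 desmosome genes measured, 3 rose, 0 fell and 11 did not pass (21.4% called beside 9.87% of all genes). The median log2 difference was 0.05 beside 0.02 over all genes. The 3 that rose were DSC3, DSC2 and PERP. DSC2 was at 5.40, 5.70 and 5.58 in the control lines and at 8.11, 8.2 and 9.12 in Cr_large (7.54-fold, adjusted p = 0.00132), and PERP, a tetraspan protein of desmosomes that is also a p53 target, was at 6.16, 5.93 and 6.36 against 9.17, 8.54 and 8.48 (5.98-fold). All were stable. DSP, the plaque protein that anchors keratins, was at 9.63, 8.72 and 10.03 in the controls and at 8.79, 7.72 and 8.13 in Cr_large and did not pass (adjusted p = 0.424). DSC3 and DSC2 are neighbours on chromosome 18, and the 250 bases before each start (RefSeq, GRCh38.p14) are shown because the pair rose together. Capitals mark CACCTG or its reverse complement CAGGTG, the E-box that SNAI and ZEB repressors bind. DSC3 lies at chr18:31042743-31042992 and DSC2 at chr18:31102422-31102671, both on the minus strand.
DSC3: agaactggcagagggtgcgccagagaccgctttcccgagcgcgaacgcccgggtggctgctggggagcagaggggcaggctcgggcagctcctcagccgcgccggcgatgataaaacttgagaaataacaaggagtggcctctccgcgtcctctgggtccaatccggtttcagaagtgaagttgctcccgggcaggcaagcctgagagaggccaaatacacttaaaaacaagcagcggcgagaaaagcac
DSC2: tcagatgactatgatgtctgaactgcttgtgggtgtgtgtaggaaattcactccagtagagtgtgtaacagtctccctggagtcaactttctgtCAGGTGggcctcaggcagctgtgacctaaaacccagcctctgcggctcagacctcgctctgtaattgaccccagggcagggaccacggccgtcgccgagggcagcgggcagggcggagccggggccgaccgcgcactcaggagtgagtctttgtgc
DSC2 held 1 such site and DSC3 none. Of 11 desmosome genes with a promoter listed 4 held it, and of 14210 genes 2387 (16.8%). No factor binding was measured.

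Of 27 tight junction genes, CLDN1 rose and TJP1 and MARVELD2 fell (11.1% called beside 9.87% of all genes), and none of the 3 was stable. CLDN1, a sealing strand protein, was at 8.54, 8.11 and 8.01 against 9.6, 9.35 and 8.97 (2.12-fold, adjusted p = 0.0293). Of 25 cadherin and catenin genes, CDH6 (4.01-fold) and CDH10 (1.65-fold) rose and 0 fell (8.0% called), and neither was stable. N-cadherin, CDH2, had a log2 difference of -0.35 (adjusted p = 0.433). None of 13 gap junction genes passed. The keratin partners KRT8 (11.95, 11.46 and 11.69 against 12.65, 12.48 and 12.52) and KRT18 (11.47, 11.19 and 11.37 against 12.20, 12.23 and 12.11) rose 1.80-fold and 1.78-fold and were stable, and KRT7 rose 1.33-fold and was not. These were the 3 called among 25 type I (4.0% called) and 20 type II keratin genes (10.0% called). Of 9 epithelial markers, 4 rose (these keratins and CLDN1) and 0 fell (44.4% called), with a median of 0.41, and 2 rose without control line 2.

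Matrix lists were called at shares from 3.45% (proteoglycans) to 18.2% (fibrillar collagens), beside 9.87% of all genes. Of 11 fibrillar collagen genes, COL5A2 and COL5A1 fell and 0 rose. COL5A1, whose protein assembles with that of COL5A2, fell 2.08-fold from 9.0, 8.38 and 8.91 to 7.80, 7.84 and 7.49 and was not stable. COL1A1 varied from 10.24 to 12.30 among the controls alone. Of 20 basement membrane genes, COL4A1 (2.52-fold) and LAMB1 (2.67-fold) fell and COL18A1 (1.43-fold) rose, and LAMB1 was not stable. A total of 3 of 28 matrix glycoproteins fell, FBN1 (2.28-fold), FBLN1 (2.24-fold) and TGFBI (2.19-fold), and 0 rose, but each of these lost its call in at least 4 of the 6 fits. BGN, a small proteoglycan, was the only member of its list of 29 to pass. It fell 5.46-fold, from 9.06, 8.38 and 8.73 to 6.26, 6.61 and 5.96 (adjusted p = 0.00061), and was stable. Among 33 proteases and inhibitors, ADAMTS1, ADAMTS5 (4.29-fold) and TIMP3 rose, and MMP2 (3.04-fold), ADAMTS3 (2.01-fold) and MMP16 (1.63-fold) fell. ADAMTS5 and ADAMTS3 were not stable. MMP2, a gelatinase, was at 7.38, 6.94 and 7.38 against 5.81, 5.62 and 5.46.

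Of 26 integrins, which bind cells to that matrix, 1 rose and 4 fell (19.2% called beside 9.87% of all genes), and the list's median of 0.02 was that of all genes. ITGA4 rose 3.57-fold from 5.40, 5.31 and 5.33 to 6.96, 7.71 and 6.89. ITGAV, a partner in receptors for vitronectin and latent TGF-beta, fell 1.85-fold from 10.91, 10.55 and 10.93 to 10.01, 9.87 and 9.85, and ITGA11, a collagen receptor chain, fell 1.98-fold. These 3 were stable. ITGBL1 (2.93-fold) and ITGB4 (1.52-fold) fell and were not. ITGB4, the integrin chain of hemidesmosomes, was also the only call among 6 hemidesmosome genes. Of 20 genes of the focal adhesion plaque, PARVB rose 1.25-fold and PTK2 fell 1.30-fold, and both calls were lost in nearly all fits.

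The TGF-beta pathway, which raises matrix and restrains epithelial growth through SMAD factors, had 8 falls and 2 rises among 25 genes (40.0% called beside 9.87% of all genes), with a median of -0.16. A mean over 7 was found for 17 of the 25, and 16.6% of all genes at that level were called. Among the receptors, TGFBR2 was at 10.39, 10.15 and 10.41 in the controls and at 8.57, 8.36 and 8.73 in Cr_large (3.39-fold, adjusted p = 0.00106). The ligand TGFB1 was at 9.02, 8.61 and 8.94 against 7.78, 8.02 and 7.88 (1.95-fold), and LTBP2, a latent TGF-beta binding protein, at 8.76, 8.33 and 8.70 against 7.32, 6.91 and 7.22 (2.74-fold). The target and feedback genes PMEPA1 (5.83-fold, adjusted p = 0.000504), SMAD7 (2.02-fold) and SMAD6 (1.88-fold) fell, as did the signal transducer SMAD3 (2.01-fold). PMEPA1 was at 9.21, 8.93 and 9.32 against 6.17, 6.95 and 6.71. The genes lower thus included a ligand, a receptor, a transducer and feedback genes. INHBA fell 1.30-fold, and INHBB (1.51-fold) and the activin receptor ACVR2A (1.54-fold) rose. PMEPA1, TGFBR2, TGFB1, LTBP2, SMAD6 and ACVR2A were stable. Of these, SMAD3, SMAD6, TGFB1, INHBA, INHBB and ACVR2A were named after their values had been seen, as were other list members named past the 4 largest of their list.

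In the BMP branch, 6 of 25 genes fell and 1 rose (28.0% called beside 9.87% of all genes). The 6 falls became 2 without control line 1, without control line 3 or without Cr_large line 2. CHRDL1 rose as above. ID1, a direct target of BMP signals, fell 2.62-fold from 8.93, 8.42 and 8.81 to 7.73, 7.2 and 7.07 but was not stable. BMP1, a protease that trims procollagens and is not a BMP ligand, fell 2.39-fold (8.99, 8.47 and 8.75 against 7.52, 7.41 and 7.51) and was stable, as was CHRDL2, a relative of CHRDL1, which fell 1.42-fold. The antagonist FSTL3 fell 1.97-fold, and the receptor BMPR2 and the transducer SMAD1 fell as well, with log2 differences of -0.70 and -0.45. FSTL3, BMPR2 and SMAD1 were not stable.

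Of 14 hedgehog genes, 3 rose and 2 fell (35.7% called beside 9.87% of all genes). The inhibitor HHIP and the transcription factor GLI3 (1.48-fold) fell. SMO, the membrane transducer, rose 1.87-fold from 6.46, 6.39 and 6.51 to 7.46, 7.35 and 7.26, while PTCH1 (1.33-fold) and SHH (1.20-fold) rose less, SHH at levels under 6. All but PTCH1 were stable. DKK1, a WNT inhibitor, rose 3.34-fold from 9.03, 9.15 and 8.63 to 10.56, 10.78 and 10.70 and was the only call among 18 WNT genes. Of 22 Notch genes, DNER and the ligand JAG1 (2.63-fold) fell and 0 rose (9.09% called), and JAG1 was not stable. Of 29 MAPK feedback and immediate early genes, JUNB (2.78-fold), DUSP4 (1.74-fold) and SPRED1 (1.27-fold) fell and ETV5 (2.23-fold) rose. They were 13.8% of the list, and DUSP4 and ETV5 were not stable. JUNB, an AP-1 subunit, was at 9.18, 9.04 and 8.91 against 7.55, 7.42 and 7.74. NUAK2 (2.05-fold lower) was the only call among 20 YAP and TEAD targets. Of 21 genes of the epithelial-mesenchymal transition, the repressors ZEB1 (7.28, 7.35 and 7.23 against 6.01, 5.88 and 5.57, 2.76-fold) and SNAI1 (6.81, 6.69 and 6.96 against 5.60, 5.73 and 5.72, 2.20-fold) and FOXC2 (1.44-fold) fell and were stable, and GRHL3, an epithelial factor, rose 1.18-fold at levels near 5.

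Of 27 cyclins, kinases and inhibitors, CCND1, the G1 cyclin, rose 2.33-fold from 9.27, 8.67 and 8.89 to 10.32, 10.38 and 9.79 but was not stable. RBL2 (1.56-fold), E2F7 (1.43-fold), CCNA2 (1.37-fold), CDKN2A (1.31-fold), CDKN1B (log2 difference -0.39) and CCNB2 (1.27-fold) fell. The share of the list called was 25.9% beside 9.87% of all genes, and CDKN1B was not stable. Of 29 mitosis and replication genes, 7 rose and 2 fell, with a median of 0.17. All 29 had a mean over 7, and 16.6% of all genes at that level were called. Of the 9 calls 4 were stable, those of AURKA, BUB1, CENPE and CDC6. The 7 rises became between 3 and 5 when a line was left out. The origin licensing genes CDC6 (1.69-fold) and CDT1 (1.62-fold) rose most, and CENPE, a kinetochore motor, fell 1.58-fold. CDC6 was stable, at 10.42, 10.26 and 10.56 against 11.17, 11.09 and 11.26, whereas CDT1 lost its call in all 6 fits. Of 28 p53 targets, PERP, CYFIP2 (3.44-fold) and RNF144B (2.47-fold) rose and TP53INP1 (1.51-fold) and PHLDA3 (log2 difference -0.37) fell. They were 17.9% of the list, and only PERP and RNF144B were stable. In the core apoptosis list of 29, CASP4, an inflammatory caspase, rose 3.00-fold (8.33, 8.67 and 8.2 against 10.21, 10.00 and 9.74), and the survival genes MCL1 (1.68-fold) and XIAP (1.43-fold) fell, all 3 stable. They were 10.3% of the list. Of 40 DNA repair genes 6 were called. ERCC4, a nuclease subunit of crosslink and excision repair, rose 1.81-fold and LIG3 1.51-fold. MSH3 (1.76-fold), FANCI (1.45-fold), CHEK1 (1.43-fold) and XRCC1 (log2 difference -0.38) fell. LIG3, MSH3 and XRCC1 were not stable. A mean over 7 was found for 32 of the 40, and 16.6% of all genes at that level were called.

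None of 10 metallothioneins passed, and of 32 NRF2 and antioxidant genes PRDX6 (1.61-fold) and GCLC (1.35-fold) rose and GSTA4 (1.79-fold) and GSTM4 (1.39-fold) fell. The share of the antioxidant list called was 12.5%, and PRDX6 and GSTM4 were not stable. PSAT1, a serine synthesis enzyme, was the only call among 25 genes of the unfolded protein and ATF4 response, at 1.79-fold, and it was lost in all 6 fits. Among 30 glycolysis and hypoxia genes, ADM, which encodes a vasodilator peptide, rose 2.76-fold (9.61, 9.69 and 9.41 against 11.38, 11.09 and 10.64) and NDRG1 1.65-fold, and P4HA2 fell 1.40-fold. They were 10.0% of the list, and P4HA2 was not stable. Of 28 genes of cholesterol and fatty acid synthesis 5 rose and 4 fell (32.1% called beside 9.87% of all genes). A mean over 7 was found for 27 of the 28, and 16.6% of all genes at that level were called. The 5 rises and 4 falls became 1 rise and 3 falls without control line 2, and 2 rises and 2 falls without control line 3 or without Cr_large line 2. INSIG1, which holds back sterol synthesis, fell 2.26-fold from 8.82, 8.96 and 9.18 to 7.6, 7.77 and 8.06, and the sterol enzymes MSMO1 (1.87-fold) and NSDHL (1.67-fold) fell as well. SCD, a fatty acid desaturase, rose 2.21-fold. SCD and MSMO1 were not stable. CYP1B1 was the only call among 8 genes of the aryl hydrocarbon receptor battery.

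Of 15 genes of the MHC and antigen processing list, 5 fell, 0 rose and 10 did not pass (33.3% called beside 9.87% of all genes), and all 5 were stable. The list's median was -0.38, or -0.14 without Cr_large line 2, and by line it was -0.13, -0.39 and 0.02. B2M, the light chain of every class I molecule, was at 11.13, 11.79 and 11.33 in the controls and at 10.07, 10.13 and 10.40 in Cr_large (2.33-fold, adjusted p = 0.00547). ERAP2 (3.90-fold) and ERAP1 (3.04-fold), which trim peptides for class I, fell from 10.06, 9.89 and 10.01 to 7.70, 7.62 and 8.75 and from 10.02, 9.74 and 9.85 to 7.78, 8.19 and 8.83. NLRC5, a transactivator of class I genes, fell 1.54-fold and PSMB10, an immunoproteasome subunit, 1.34-fold. Of 34 cytokine and chemokine genes, IL11 (1.89-fold), IL32 (1.79-fold) and IL1A (1.26-fold) fell, 0 rose (8.82% called) and none was stable. Only SP100 (1.20-fold lower, not stable) of 33 interferon-stimulated genes passed, and the list is taken up again with the single lines.

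At the cell surface, 5 of 50 ephrin, semaphorin and other guidance genes rose and 6 fell. The 11 calls among 50 can be read beside 9.87% of all genes called. A mean over 7 was found for 13 of the 50, and 16.6% of all genes at that level were called. EPHA4, L1CAM (4.75-fold), the SLIT receptor ROBO1 (2.85-fold), SEMA4D and SEMA5A rose, and SEMA3A (3.90-fold), the ligand SLIT3 (2.97-fold), SEMA7A (2.56-fold), SEMA3C, NRP1 and SEMA3F fell. SEMA4D, NRP1 and SEMA3F were not stable. L1CAM, an adhesion molecule of nerve cells, was at 7.29, 6.99 and 7.34 against 9.43, 9.57 and 9.36, and SLIT3 at 7.01, 7.05 and 7.50 against 5.58, 5.68 and 5.57. Of 27 surface and clearance receptors 6 rose and 4 fell (37.0% called). With OLR1 and L1CAM, the tetraspanin CD82 (2.55-fold), the ectonucleotidase NT5E (2.48-fold), the lipoprotein receptor SCARB1 (2.42-fold) and CD9 (log2 difference 0.85) rose. TLR4, the receptor for bacterial lipopolysaccharide, fell 6.56-fold, from 9.54, 9.61 and 9.51 to 6.69, 7.10 and 6.72, and TLR3 by a log2 difference of -0.62. CD9 and TLR3 were not stable.

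Pregnancy-specific glycoproteins are made by the placenta and lie side by side on chromosome 19. Of 7 measured, PSG2, PSG9 (2.08-fold) and PSG11 (2.02-fold) rose (42.9% called beside 9.87% of all genes). Only PSG2 was stable, and the median was 2.00. Without control line 2, PSG2 alone passed. PSG2 was at 4.77, 4.95 and 4.68 against 8.72, 7.96 and 7.82. PSG3 was higher in every Cr_large line (5.10, 5.05 and 5.62 against 8.86, 7.84 and 7.15) and did not pass (adjusted p = 0.0735). Members of this family are near-identical, so the probes may share signal. Of 10 trophoblast markers, TFAP2C, a transcription factor of trophoblast and other epithelia, rose 4.62-fold and the other 9 did not pass, with CGA, GCM1 and CYP19A1 between 4.70 and 4.93 in these 6 lines. Of 23 imprinted genes, PEG10 rose 3.70-fold and GRB10 fell 2.02-fold (8.7% called), neither stable. This list did not hold SNORD116-15 and SNORD116-14 of chromosome 15, which fell 11.7-fold and 10.4-fold and were stable. Of 15 genes of the Y chromosome 10 fell (66.7% called), all stable, RPS4Y1 by 5.07 on the log2 scale.

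**Figure D3:**
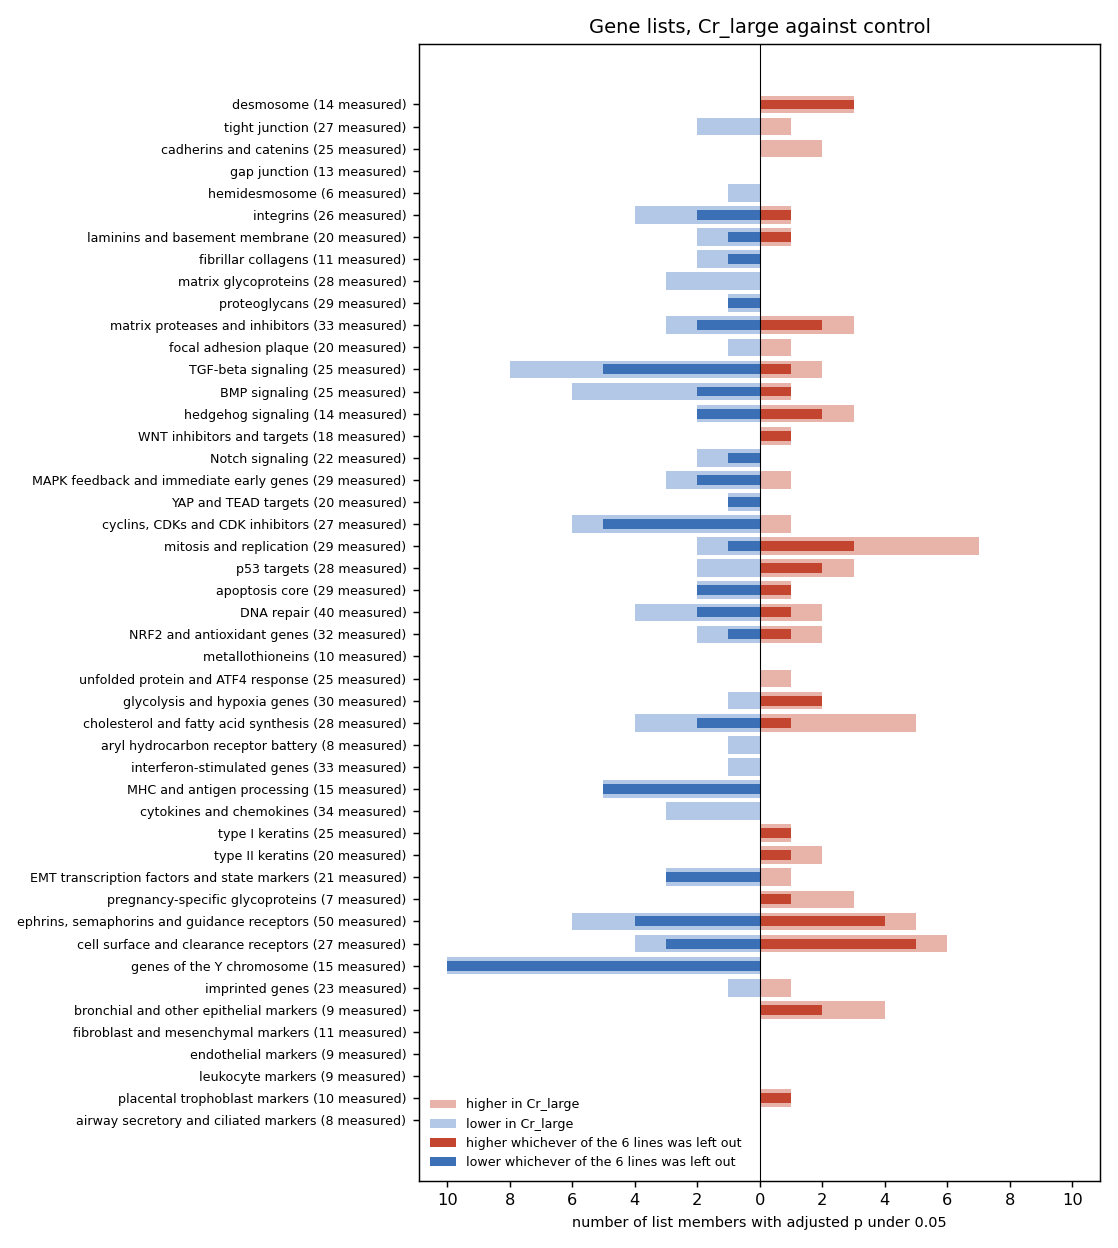
Number of members of each gene list with an adjusted p under 0.05, lower in Cr_large to the left and higher to the right, with the number measured beside each name. Pale bars are all calls and dark bars those that held whichever of the 6 lines was left out. The TGF-beta and Y chromosome bars reach farthest left, and the mitosis bar farthest right.

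The calls were spread unevenly over the genome. Chromosomes 4, 15 and X held 410 of the 1012 lower genes (40.5%) and 51 of the 801 higher genes (6.37%), beside 10.8% of all genes. Among genes with a mean level over 7, the median log2 difference was -0.40 on chromosome 15, where 116 of 233 genes were lower and 0 higher, -0.38 on chromosome 4 (95 lower and 5 higher of 266) and -0.37 on the X chromosome (113 lower and 26 higher of 253). Over all 7783 such genes the median was 0.00 and 16.6% were called. The single lines were alike there, at -0.39, -0.43 and -0.38 on chromosome 15, -0.34, -0.44 and -0.33 on chromosome 4 and -0.37, -0.42 and -0.34 on X. The Cr_small lines had much the same medians against control, at -0.41 on chromosome 15, -0.42 on chromosome 4 and -0.37 on X. On these chromosomes the median of each control line was between -0.09 and 0.06 from the mean of the other controls. Parental cells were at -0.02 from the control mean on chromosome 15, at -0.26 on chromosome 4 and at -0.45 on X. Chromosomes 13 (28 lower and 0 higher of 140) and 8 (51 lower and 12 higher of 269) had medians of -0.22 and -0.14, and chromosome 17 (64 higher and 8 lower of 488) of 0.15. In Cr_small these 3 medians were -0.21, -0.14 and 0.17. Over genes of any level the medians were -0.11 on chromosome 15, -0.05 on chromosome 4 and -0.02 on X.

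Along the chromosomes the differences came in blocks. The genes with a mean over 7 were divided, after the data had been seen, into 238 windows of at least 31 neighbours, named here by their first and last gene in the order of RefSeq (GRCh38.p14). In 44 windows the median lay beyond 0.3, 14 higher and 30 lower. All 3 lines were beyond 0.3 in the same direction in 24, of which 20 were lower. Among the controls, 1 window had a line beyond 0.3 of the others, and that was control line 2 at 0.48 in H4C4 to TRIM26 on chromosome 6, which holds histone genes. On chromosome 5 the windows CCDC127 to MTMR12 and ZFR to MRPS30 lay at 0.47 and 0.52, with 20 of 33 genes called higher in each, and a few windows on, MTX3 to MACIR lay at -0.54. On chromosome 11, TMEM126A to BIRC2 and TMEM123 to REXO2 lay at 0.41 and 0.39, while the last window, ARHGEF12 to ACAD8, lay at -0.36 with 13 of 32 genes lower. The X chromosome began with PLCXD1 to SAT1 at 0.41 (16 of 32 higher) and ended with CETN2 to VAMP7 at -0.74 (24 of 31 lower). The first window of chromosome 2, ACP1 to LAPTM4A, lay at -0.32 and CHMP7 to SNORD13 on chromosome 8 at -0.38. Window medians were not taken for the Cr_small lines, and DNA was not measured.

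Several genes of the lists lay in such blocks, and their differences are best read beside them. On chromosome 15, TJP1 (-0.59), FANCI (-0.54), CCNB2 (-0.34), BUB1B (-0.38) and SPRED1 (-0.34) lay near the chromosome's median of -0.40, and B2M (-1.22), FBN1 (-1.19), ITGA11 (-0.99), SMAD3 (-1.01), SMAD6 (-0.91) and SEMA7A (-1.36) lay below it. On chromosome 4, CCNA2 (-0.46), SMAD1 (-0.45), CENPE (-0.66) and ELOVL6 (-0.65) stood beside a median of -0.38, and HHIP at -3.55 lay far below. ERAP1 (-1.61), ERAP2 (-1.97) and MSH3 (-0.82) all lie in the window MTX3 to MACIR at -0.54. NPR3, at -3.60, lies in the window ZFR to MRPS30, whose median was 0.52, and CHRDL1 (3.79) and L1CAM (2.25) rose on an X chromosome with a median of -0.37. Of the 97 list genes called lower, which include 10 of the Y chromosome, 22 were on chromosomes 4, 15 or X, and of the 61 called higher 2. Over all genes, 40.5% of those called lower and 6.37% of those called higher were there, beside 10.8% of all measured. The share of all list genes on these chromosomes was not taken. The part of these blocks in each gene's difference was not tested.

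The 3 Cr_large lines also differed from each other by blocks. In 71 of the 238 windows the highest and lowest line were over 0.3 apart. On chromosome 18 the medians were -0.36 in line 1, 0.27 in line 2 and 0.07 in line 3, and all 3 windows of that chromosome gave the same order. On chromosome 10 line 2 stood at -0.31, beside -0.05 and 0.08, and on chromosome 14 lines 2 and 3 stood at -0.27 and -0.35 beside 0.00 in line 1. On chromosome 9 lines 1 and 2 both stood at 0.27 and line 3 at 0.03, and in the first 6 windows of chromosome 3 lines 1 and 2 stood between -0.16 and -0.39 and line 3 between -0.05 and 0.06. Line 2 alone was low on part of chromosome 1, where USF1 to KIFAP3 was at -0.52 beside 0.00 and -0.05. DSC3, on chromosome 18, was at 9.69, 10.47 and 10.13 in lines 1, 2 and 3, and DSC2, beside it, at 8.11, 8.2 and 9.12. Line 1 was the lowest for both, and a link to that chromosome's medians was not tested.

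**Figure D4:**
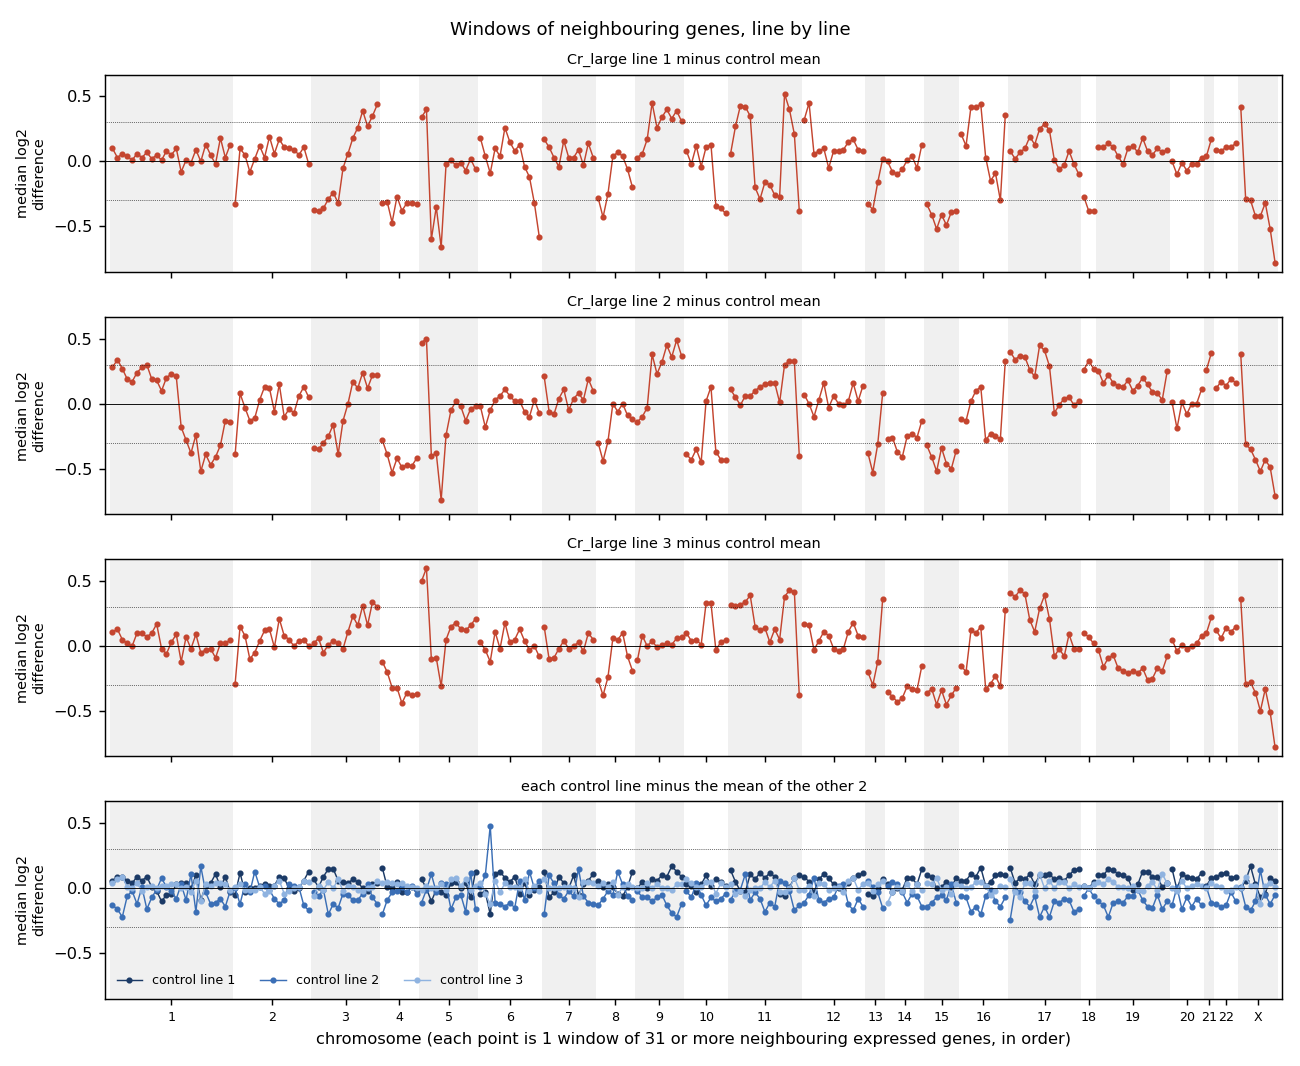
Median log2 difference (vertical axis) in 238 windows of 31 or more neighbouring genes with a mean over 7, in chromosome order, for each Cr_large line against the control mean and, in the lowest panel, for each control line against the other controls. Dotted lines mark 0.3 and -0.3. Chromosomes 4 and 15, and X after its first window, are low in all 3 Cr_large lines, chromosome 18 is low in line 1 and high in line 2, and the controls stay near 0 but for 1 window of control line 2.

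The spread among the Cr_large lines was wider than in the other groups by the median, but not by the number of genes with a very large SD. Over 7783 genes with a mean above 7, the median SD was 0.158 in Cr_large, 0.133 in Cr_small and 0.130 in control (n = 3 each), and 186, 137 and 98 genes had an SD over 0.5. An SD over 1 was found for 10, 17 and 11 genes. The largest was that of HAS2, which makes hyaluronan, at 9.17, 8.29 and 5.27 in Cr_large lines 1, 2 and 3, with controls at 4.93, 5.15 and 4.93. It did not pass the test, and line 3 lay near the controls. KRT19 (10.07, 8.83 and 7.26 against 6.07, 6.14 and 6.27) and KRT34 (10.01, 8.25 and 7.19 against 5.83, 6.28 and 6.04) were above the controls in all 3 lines, highest in line 1, and did not pass either (adjusted p = 0.169 and 0.0531). RGS4, which limits G protein signals, was at 8.40, 9.88 and 6.59 against 10.80, 11.13 and 10.70. Of the 10 expressed genes with the widest spread (these 4, FGF5, SPOCK1, H2BC12, PSG1, EDIL3 and CYP1B1), SPOCK1 was the only one with Cr_large lines on both sides of the controls.

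Genes that set a single line apart were named after their values had been seen. A gene was taken to set a line apart where it lay over 1 log2 unit from the mean of the other Cr_large lines and these were within 0.3 of each other. This held for 23 genes above and 8 below in line 1, 10 above and 9 below in line 2 and 15 above and 11 below in line 3. In line 1 the interferon-induced genes IFIT2 (7.95 beside 5.12 and 5.0), IFIT3 (7.56 beside 5.74 and 6.03), IFIT1 (6.82 beside 5.23 and 5.48), IFI44 (6.33 beside 4.67 and 4.61) and OASL (6.43 beside 5.13 and 5.10) were high, while lines 2 and 3 lay close to the controls. Other interferon genes were not raised alike there: OAS1 was at 5.47 and IFI6 at 8.33 in line 1, with controls at 5.46 to 5.59 and 8.27 to 8.34, and ISG15 was at 6.83 against 6.51 to 6.56. The median of all 33 interferon genes minus the control mean was 0.07 in line 1, -0.09 in line 2 and 0.01 in line 3. The 250 bases before the start of IFIT1, IFIT3 and IFI44 (RefSeq, GRCh38.p14) are shown as those genes moved together in 1 line. IFIT1 lies at chr10:89392373-89392622, IFIT3 at chr10:89327747-89327996 and IFI44 at chr1:78649539-78649788, all on the plus strand. Capitals mark the core of the interferon-stimulated response element, which is GAAA followed after 2 bases of any kind by GAAA, or its reverse complement.
IFIT1: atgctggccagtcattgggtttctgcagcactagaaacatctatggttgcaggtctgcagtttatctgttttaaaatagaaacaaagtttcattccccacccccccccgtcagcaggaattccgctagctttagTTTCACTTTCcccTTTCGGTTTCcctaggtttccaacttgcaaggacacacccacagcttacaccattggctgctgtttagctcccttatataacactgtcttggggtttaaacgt
IFIT3: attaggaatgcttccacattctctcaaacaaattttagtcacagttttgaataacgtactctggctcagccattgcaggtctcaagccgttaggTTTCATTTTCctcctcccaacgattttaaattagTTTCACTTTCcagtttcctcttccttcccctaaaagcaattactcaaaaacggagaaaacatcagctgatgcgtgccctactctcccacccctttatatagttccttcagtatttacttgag
IFI44: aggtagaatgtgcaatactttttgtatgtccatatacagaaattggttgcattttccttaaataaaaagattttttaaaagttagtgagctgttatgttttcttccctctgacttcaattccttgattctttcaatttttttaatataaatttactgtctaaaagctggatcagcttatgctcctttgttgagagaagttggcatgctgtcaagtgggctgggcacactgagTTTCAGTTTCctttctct
The core stood in 2 places in IFIT1 and in IFIT3 and in 1 place in IFI44. Of 26 genes of the interferon list with a promoter listed 15 held it, beside 364 of 14210 genes (2.56%).

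Line 1 also had high GJA5, a gap junction gene (7.65 beside 4.93 and 5.14), and MMP1, a collagenase (6.52 beside 4.90 and 4.79), and kept SPOCK1, a proteoglycan (8.67 beside 6.46 and 6.31, controls 7.78 to 8.18). It was low in CDH11, a mesenchymal cadherin, at 5.23, the level of the controls, where lines 2 and 3 were at 6.73 and 6.74, and in NEO1, a guidance receptor (5.89 beside 7.24 and 7.44). Line 2 had a few high histone genes, H2BC12 (11.17 beside 9.03 and 8.78), H4C8 (8.40 beside 7.07 and 6.99) and H3C10 (9.21 beside 8.15 and 8.22). The window H4C4 to TRIM26, which holds histone genes, had a median of -0.05 in line 2 beside -0.09 and -0.12. Histone messages of this kind are usually made in S phase, and cell cycle stage was not measured on these arrays. STC1, a secreted glycoprotein hormone, was also high in line 2 (7.18 beside 5.46 and 5.73). Line 3 was low in the growth factor gene FGF5 (7.18 beside 9.61 and 9.41), in PHLDA1 (7.49 beside 8.6 and 8.88) and in PLAUR, the urokinase receptor (8.35 beside 9.54 and 9.78), and in the lysophosphatidic acid receptor LPAR1 (7.67 beside 9.30 and 9.35). ALDH2, an aldehyde dehydrogenase, was at 7.73 there beside 6.26 and 6.28. With 1 array for each line these are levels with no test.

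**Figure D5:**
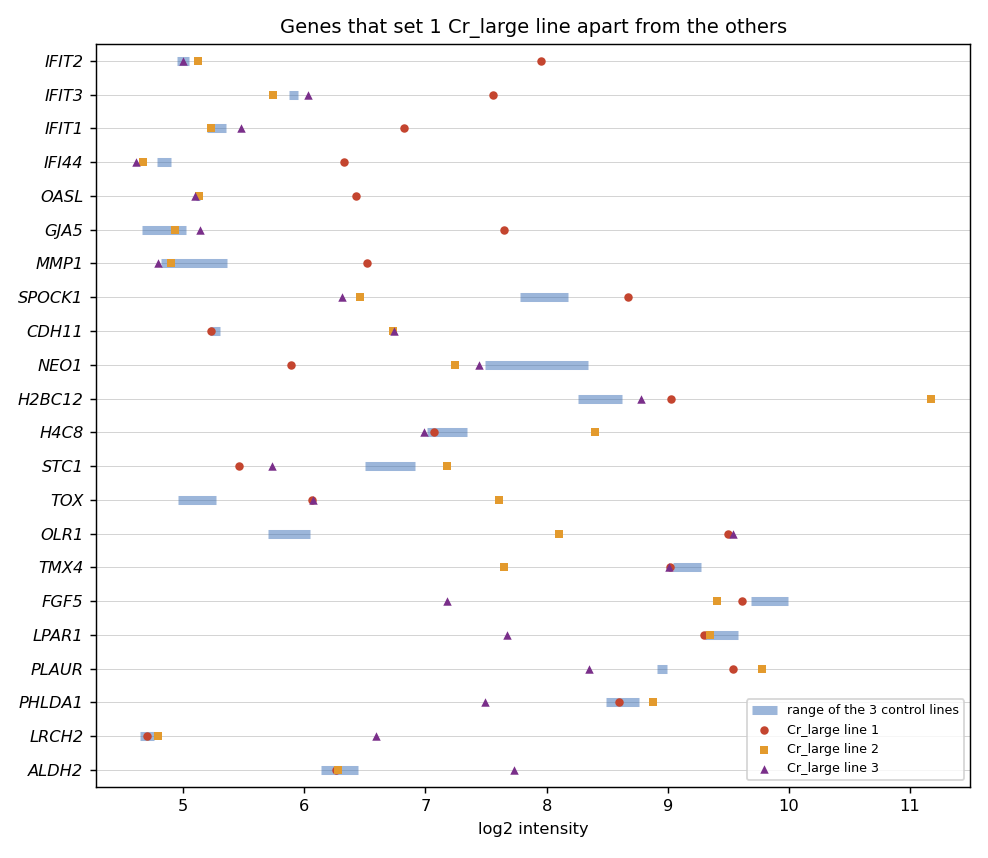
Log2 intensity (horizontal axis) of genes that set 1 Cr_large line apart, chosen after their values were seen. Points are the 3 Cr_large lines and the blue bar spans the 3 control lines. The 5 interferon-induced genes at the top are high in line 1 while lines 2 and 3 lie near the controls.

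Against the Cr_small lines, which share the exposure, no gene passed the test (0 of 28869 clusters, 0.0%, limma). At an unadjusted p under 0.05 there were 1266 clusters (4.39%), and the smallest adjusted p among genes was 0.426. Without Cr_large line 2, 1 cluster passed, that of SLC7A2, a carrier of basic amino acids. The genes with the largest differences at an unadjusted p under 0.05 are therefore given as values. TM4SF1, a tetraspan surface protein, was at 8.35, 8.6 and 8.06 in Cr_large and at 7.55, 7.08 and 7.37 in Cr_small (log2 difference 1.00), but at 8.05, 8.40 and 8.01 in control. PNPLA4 (1.28) and NAV3 (0.99) were also higher in Cr_large than in Cr_small, with control means nearer to Cr_large, and so was RPL39L (0.87), with a control mean nearer to Cr_small. ADAM12, a surface protease, was lower in Cr_large (6.72, 7.01 and 7.05) than in Cr_small (7.70, 7.75 and 8.09), and lower in both than in control (9.31, 8.80 and 9.29). ADGRL2 (-1.03), TNC (-0.96), an adhesion-modulating matrix protein, and ADAMTSL1 (-0.90) were lower in Cr_large as well, and CRYAB (1.18), a small heat shock protein, and OLR1 (0.94) were higher. The comparisons of Cr_large and of Cr_small with control share the control lines. In the latter DSC3 had a log2 difference of 5.33 beside 5.19, COL5A2 of -4.33 beside -4.39, PERP of 1.76 beside 2.58 and ADGRL2 of -1.92 beside -2.96.

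The parental cells, from which the lines were derived, were measured on 1 array, so their levels are values with no test. Of the 115 genes at least 2-fold higher in Cr_large than in control, 65 had a parental level nearer to the controls and 50 nearer to Cr_large. Of the 203 lower genes 129 were nearer to the controls and 74 nearer to Cr_large. EYA4 (8.40), COL5A2 (9.11) and NPR3 (9.38) stood in the parental cells near their control levels, and PSG2 at 4.77 with them. DSC3, at 8.96, was nearer to Cr_large but below all 3 of its lines. Its log2 difference was 4.06 from the control mean and -1.14 from the Cr_large mean. NPPB (8.93) and PERP (8.23) stood near the Cr_large lines, and HHIP at 5.80 did so too, so that for these genes the control lines lay apart from both. SNAI1 (5.48), JUNB (7.25), PMEPA1 (6.97) and LTBP2 (6.95) were likewise near the Cr_large lines, whereas TGFBR2 (9.36) lay between the groups.

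Promoters reaching from 250 bases before to 50 after the start were found for 86 of the 115 higher and 163 of the 203 lower genes. The E-box CACCTG, read on both strands, was in 24 of the 86 (27.9%), in 31 of the 163 and in 2788 of all 14210 (19.6%). The AP-1 motif TGANTCA was in 2 of the 86 (2.33%), 3 of the 163 (1.84%) and 794 of all (5.59%), and the AP-2 motif GCCNNNGGC in 33.7%, 35.0% and 28.9%. In the same order, the TATA box TATAAA was in 10.5%, 9.82% and 8.97%, and the TEAD motif GGAATG in 10.5%, 14.1% and 11.6%. The median GC content was 66.3%, 65.3% and 63.0%. The motif values are shares of promoters with the letters and were not tested.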

How the data were processed

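RNA of 10 cell lines was measured on 10 arrays, 3 control, 3 Cr_large, 3 Cr_small and 1 parental. The authors extracted intensities and normalised them by RMA16 in GeneSpring, and the deposited values are linear intensities between 20.0 and 16979.5. The genome build behind the probe annotation is not given in the sources used here. Log2 intensities of 28869 transcript clusters were fitted with limma 3.58.1 in R 4.3.3, with 4 group means and moderated variances, with Benjamini-Hochberg adjustment across the whole array. A call is an adjusted p under 0.05. Of the clusters, 19310 had 1 gene symbol, 1752 several and 7807 none. For each gene the cluster with the highest mean over the 10 arrays was kept (18377 genes). The number of arrays limits the precision. Data were simulated with independent noise at the pooled spread of the 9 control, Cr_small and Cr_large lines. There the fit recovered 35 of 67 clusters changed 1.5-fold, 60 of 67 changed 2-fold and 64 of 66 changed 5-fold, and 12 of its 171 calls were unchanged clusters. Far fewer clusters were changed than were called in the real data, and shifts shared by neighbouring genes were not simulated.

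The members and gene lists were chosen with earlier results of these data known. Genes named were the 15 largest rises and the 15 largest falls past the test without overlap between lines, up to 4 of each list, up to 10 with the largest difference between Cr_large and Cr_small, the 10 with the widest spread among Cr_large lines at a mean over 7, and cell type markers. Others are said in the text to be named after their values were seen. Gene order, names and promoters are from RefSeq (GRCh38.p14). Alternatives tried were the methods' t-test, the groups compared alone, a variance trend, centring, quantile normalisation, filters on dim and multi-gene clusters, the replicate number as a block, and leaving out each line. Python 3.11.15, pandas 2.3.3 and matplotlib 3.10.9 were used for tables and figures.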

Additional observations from a re-analysis of the deposited data

How the results depend on the processing

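Leaving out 1 line at a time gave between 1087 and 1902 called clusters against 2147, between 701 and 1128 at 1.5-fold, 272 to 403 at 2-fold and 43 to 56 at 5-fold, and 99 to 143 called list genes against 158. In these fits 0 to 1 clusters differed between Cr_large and Cr_small, and 1 to 2 chromosomes had a median beyond 0.1 over all genes. With only genes of a mean over 7 the number of such chromosomes was 13. The methods' t-test at an unadjusted p under 0.05 gave 4819 clusters, with more higher (2583) than lower (2236) where the limma fit had 960 and 1187, 1122 clusters between Cr_large and Cr_small, and 268 list genes (133 higher and 135 lower against 61 and 97). After Benjamini-Hochberg it gave 110 clusters, of which 86 changed 1.5-fold, 52 changed 2-fold and 19 changed 5-fold, and 18 list genes. Centring each array gave 2100 clusters, 735 higher and 1365 lower, and quantile normalisation 2167. With only the groups compared in the fit there were 1678. Clusters called with all lines and also under another setting kept their direction, whereas some list medians within 0.04 of 0 changed sign, such as that of the MAPK list from -0.01 to 0.1 without Cr_large line 3. Of the 30 genes with the largest changes, calls were the same in 428 refits and lost in 22. Under the methods' t-test after Benjamini-Hochberg alone, 19 of these 30 genes lost their call, among them ADAMTS1, PSG2, TIMP3, DSC2, PERP and NPR3. The remaining losses were of CYP1B1 when a line was left out. The lines share only a number: the residuals of same-numbered lines correlated between -0.145 and 0.0984. With the replicate number as a block, 1756 clusters were called, 927 at 1.5-fold, 334 at 2-fold and 46 at 5-fold, with 145 list genes and 0 between Cr_large and Cr_small. The cause of these shifts was not tested.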
